A study of Mus musculus with 12 samples.

Results

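The comparison described here is that of steady-state RNA in epiblast-like cells (EpiLCs) with that in the embryonic stem cells (ESCs) they came from. It rests on 6 of the 12 libraries of the series, 3 of EpiLC total RNA and 3 of ESC total RNA, chosen by their labels as total RNA. The other 6 libraries hold RNA captured after a 4-thiouridine (4sU) pulse and were used only in 1 alternative fit. Genes entered when at least 3 of the 6 libraries reached 3 CPM (read counts scaled to the size of their library), which kept 12413 of 51467 genes. Of these, 1206 reached that level in libraries of only 1 cell type, so they had to differ between the cell types to enter. Where a list described here holds 3 or more such genes their number is given, and counts over a list are descriptions of its tested members.

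ESCs were kept in the naive state in a serum medium with LIF (leukaemia inhibitory factor) and the inhibitors PD0325901, which blocks the kinase MEK, and CHIR99021, which blocks GSK3 (2i). EpiLCs were the same cells about 56 h after LIF and 2i had been taken away. Both groups had 500 µM 4sU for 30 min before lysis, and ribosomal RNA was removed from the total RNA. Per the methods of the study, the cells belong to 1 mouse line, V6.5 carrying fluorescent reporters of the miR-290 and miR-302 loci, so replicates are libraries of that line and the labels do not say whether they came from separate cultures. The p-values then measure only the spread between these libraries.

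Naive ESCs stand for the epiblast of the blastocyst before implantation, and EpiLCs for the formative epiblast soon after it. In the embryo that step turns a rounded cell mass into a polarised epithelium that lies on a basement membrane and answers to FGF, Nodal and Wnt signals. LIF acts through its receptor and STAT3, the inhibition of MEK silences the ERK branch of FGF signalling, and the inhibition of GSK3 stabilises beta-catenin, so removal of LIF and 2i changes 3 inputs at the same time, which cannot be told apart here. In bulk RNA, fewer cells of a type and less RNA per cell cannot be told apart either, and the spike-in sequences listed in the table had 0 reads, so each level is relative to the rest of its library.

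Libraries held 9300845 to 21975684 counted reads. Spearman's rho of log2 levels was 0.979 to 0.998 between ESC libraries, 0.994 to 0.997 between EpiLC libraries and 0.859 to 0.870 between cell types. ESC replicate 3 stood apart from the other ESC libraries: the first principal component (92.3% of the variance) separated the cell types, and the next (5.44%) gave that library a score of 32.6 against -17.0 and -15.9. In it, 297 genes were more than 1 log2 unit above and 139 more than 1 below the mean of the other ESC libraries. Without it 1968 genes were higher and 1354 lower, and 3097 calls were shared with the fit of all 6 libraries. Many results that this library moved are given with their value without it, but not all. The lack of such a value does not mean that a result was stable. Markers of each state moved in the direction the labels give: of naive markers 11 of 12 fell, and of formative and primed markers 10 of 11 rose (8 without ESC replicate 3), with 3 genes of each list entering through 1 cell type only. Whole-list levels of 15 fibroblast genes were 57.6 to 86.1 CPM in ESC and 117 to 121 CPM in EpiLC libraries, with Postn at 0 and 1 reads, Lum at 1 and 0, Dcn at 0 and 143, Col1a2 at 7 and 125 and Fbn1 at 475 and 1436 in the ESC and EpiLC groups. Of the 7 tested (4 through 1 cell type only), 4 rose and 1 fell, with a median of 2.30. Their part in the results was not tested.

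Steady-state RNA differed widely between the cell types. With limma-voom, 3232 of 12413 genes (26.0%) changed by more than 2-fold with an adjusted p under 0.05 (Benjamini-Hochberg), which is the call used throughout. Of these, 1881 (15.2% of genes tested) rose and 1351 (10.9%) fell in EpiLCs. Among the 3232 calls, 1123 were genes that had entered through 1 cell type only, of 1206 such genes tested. The shares over all genes given here and below thus include calls that the filter favoured. The median change of all genes was 0.00 on the log2 scale, and the median size of a called change was 1.82. Changes past log2 4 were 227 rises and 166 falls. The libraries of the cell types did not overlap for 9020 genes (72.7%), so lack of overlap alone is common here. It was also a condition for naming the largest changes of each list, so for those genes it adds no support. With the adjusted p alone, 33.5% of genes were higher and 33.9% lower, and many of those differences were small.

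**Figure D1:**
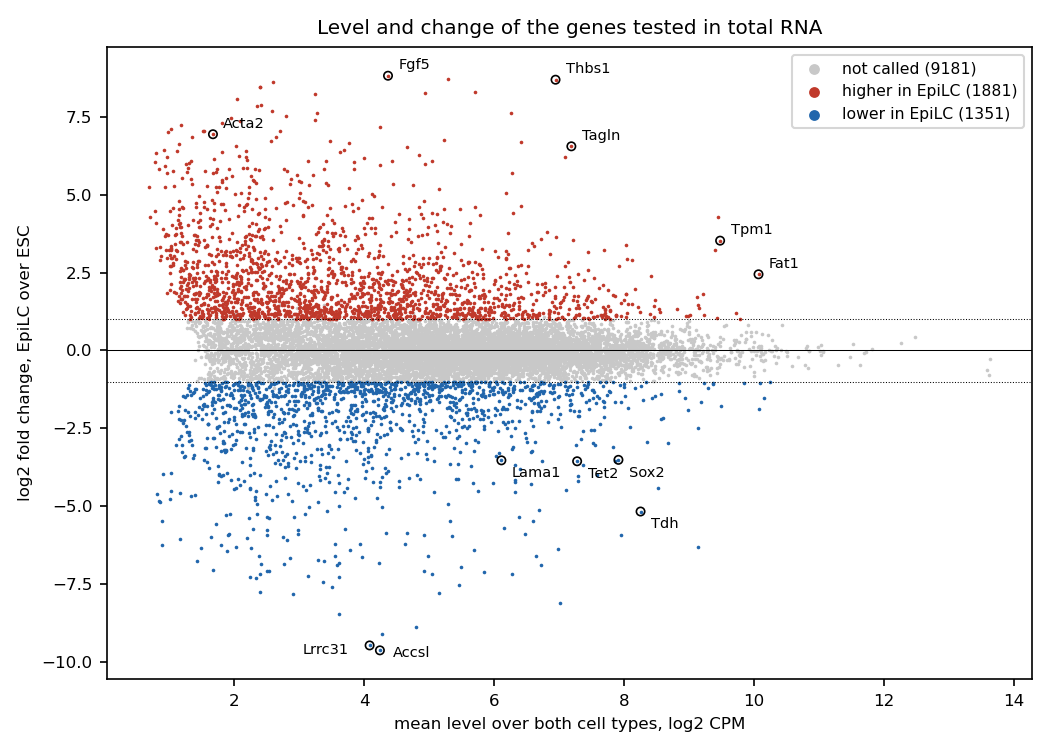
Each point is 1 of the 12413 genes tested: its mean level over both cell types (horizontal axis, log2 CPM) and its log2 fold change, EpiLC over ESC (vertical axis). The 1881 rises are red, the 1351 falls blue and the 9181 genes not called grey; dotted lines mark a 2-fold change. Where the mean reached 10 CPM, 970 genes rose and 839 fell, and Tpm1 and Fat1 are among the most abundant rises.

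With scarcer genes (mean under 10 CPM) and genes whose cell types overlapped left out, the rises with the highest fitted change were Fgf5 (a growth factor of the early epiblast), Fndc3c1, Thbs1 (thrombospondin 1, a matrix protein), Enpp2 (autotaxin, which makes lysophosphatidic acid) and Car4 (a carbonic anhydrase). Thbs1 measured 0.320, 0.556 and 1.28 CPM in ESCs and 279, 217 and 241 CPM in EpiLCs, a change of 8.69 ± 0.47 (log2 ± SE; limma-voom adjusted p = 3.82e-06). Enpp2 measured 0.213, 0.278 and 0.547 CPM in ESCs and 107, 105 and 100.4 CPM in EpiLCs (8.28 ± 0.33; limma-voom adjusted p = 1.08e-06). Here and below, values per library are in the order of replicates 1, 2 and 3. In both genes the 3 ESC libraries were near 0 and every EpiLC library lay far above them. Fgf5, Fndc3c1 and Car4 rest on 5, 9 and 10 reads in the ESC group, and their fitted changes moved by more than 1.5-fold with 1 library: Fgf5 (8.82) was 7.83 without ESC replicate 2 and 9.52 without ESC replicate 1, Fndc3c1 (8.70) was 9.41 without ESC replicate 3, and Car4 (8.26) was 7.62 without ESC replicate 1.

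Under the same limits, the falls were headed by Accsl, Lrrc31, Prdm14 (a regulator of the naive state), 2210409E12Rik and 2310043M15Rik. Accsl measured 41.4, 45.6 and 26.8 CPM in ESCs and had 0 reads in all 3 EpiLC libraries, a fall of at least 402-fold when the EpiLC group is set to a floor of 3 reads. Lrrc31 measured 36.1, 34.5 and 31.4 CPM in ESCs and likewise 0 reads, a fall of at least 346-fold. The other 3 held 1 to 3 reads over the EpiLC group. For Prdm14 the ratio of ESC to EpiLC reads per library total was 1137 (95% counting interval 204 to 44921). Lack of overlap between the cell types was a condition for naming these 5 genes.

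**Figure D2:**
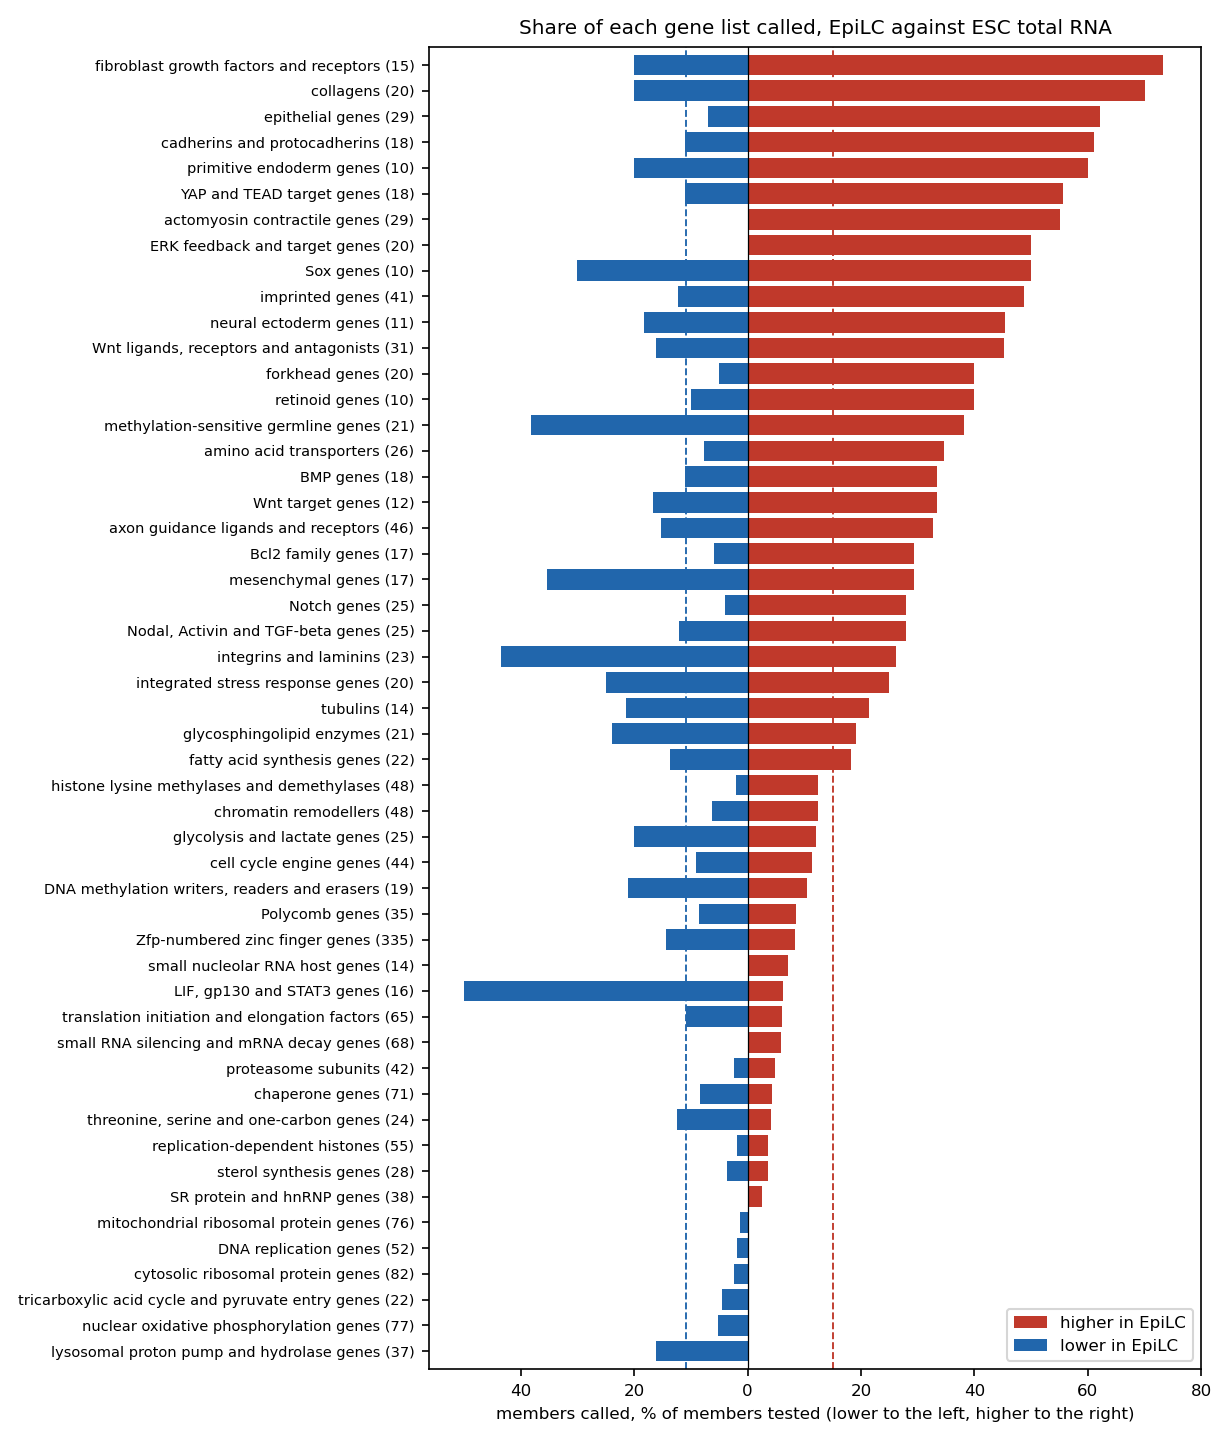
Bars show, for each gene list with at least 10 members tested, the percentage called higher (red, to the right) and lower (blue, to the left) in EpiLC total RNA, with the number tested in brackets. Dashed lines are the shares over all genes tested (15.2% higher, 10.9% lower). Lists of growth factors, matrix, adhesion and contractile proteins stand at the top, and those of ribosomal, mitochondrial and replication proteins near the bottom with few members called.

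Contractile genes, as a list, were higher in EpiLCs. The list holds 33 genes, among them those of actin filaments, myosin light chains, calponins and tropomyosins, and the transcription factor gene Srf. Of these, 29 were tested, and 16 (55.2%) rose while 0 fell, with a median change of 1.28 against 0.00 for all genes. Of the 29, 5 had reached the filter in 1 cell type only. The list does not cover all muscle genes or all myosin light chains. Mylpf (-6.89 ± 0.30), a myosin light chain of skeletal muscle, and Ttn (-2.94 ± 0.27) are outside it and fell. The count of 0 falls thus holds for the listed genes only. Tagln (chromosome 9, 45929619 to 45936058 in mm10), which encodes the actin-bundling protein transgelin, measured 2.82, 3.15 and 3.19 CPM in ESCs and 312, 262 and 292 CPM in EpiLCs. Every EpiLC library lay far above every ESC library, a change of 6.55 ± 0.17 (limma-voom adjusted p = 3.42e-07). Cnn1 (calponin 1) measured 0.799, 0.926 and 0.365 CPM in ESCs and 54.4, 56.2 and 59.1 CPM in EpiLCs (6.27 ± 0.28) and Myl9 (a regulatory light chain of non-sarcomeric myosin) 1.81, 2.45 and 2.64 CPM in ESCs and 53.0, 57.9 and 55.5 CPM in EpiLCs (4.62 ± 0.17). Both genes entered through EpiLC libraries only, and lack of overlap was a condition for naming them.

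Tpm1, a tropomyosin that lies along actin filaments, was far more abundant than these at the start and still rose, with means of 115 ± 16.3 CPM in ESCs and 1309.8 ± 74.9 CPM in EpiLCs (SD, n = 3), a change of 3.52 ± 0.09. Acta2, the smooth muscle actin, had 2 reads in the ESC group and 200 in the EpiLC group, a ratio of 170 per library total (95% counting interval 46.5 to 1415, counting error only). Flnc (2.93), Tpm2 (2.17), Cnn2 (2.04), Vcl (1.40) and Myh10 (1.34) also rose. Srf, the transcription factor that controls many of these genes and is counted in the list, rose from 51.9 to 125 CPM (1.28 ± 0.06, limma-voom adjusted p = 2.56e-06). Not every member rose: Myl6, the essential light chain of non-muscle myosin, was not called (-0.15 ± 0.10, limma-voom adjusted p = 0.23), nor was Cnn3 (-0.69 ± 0.07), the member with the highest level per kilobase (232 RPKM in ESCs and 144 RPKM in EpiLCs, RPKM being CPM per kilobase of exon).

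SRF binds the CArG box, which reads CC, then 6 bases that are each A or T, then GG. This pattern is its own reverse complement, so 1 search covers both strands. It was searched in RefSeq promoter windows (GRCm38.p6, 250 bases before to 50 after each annotated start), which 9393 of 12411 gene symbols tested had. Of these, 143 (1.52%) held the motif, against 6 of the 27 contractile genes with a window (22.2%). The 6 are Myl9, Acta1, Cnn2, Vcl, Srf and Myl6, of which 5 rose, Myl9 and Acta1 after entering through 1 cell type only, and Myl6 was not called. The motif was thus found for 5 of the 16 rises of the list. Tagln, Cnn1 and Tpm1, which rose, are not among them, and whether each had a window is not reported here. Of the ERK list described further on, 2 of 14 genes with a window (14.3%), Dusp5 and Egr2, held it, and both rose. Over all genes the motif was about as common among rises (24 of 1343, 1.79%) as among falls (16 of 1024, 1.56%) and genes not called (103 of 7026, 1.47%). A match is a description of these windows and not a site shown to be bound, and the set was chosen with the changes known.

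These windows show the motif in capitals with 10 bases on each side, on the strand of the gene, with the coordinates of the printed bases, because they set the 5 members that rose beside the 1 that was not called. Srf holds 2 matches, of which the one nearer its start is shown.
Myl9, chr2:156775293-156775322 (+): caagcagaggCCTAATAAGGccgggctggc
Acta1, chr8:123894829-123894858 (-): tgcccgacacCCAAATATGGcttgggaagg
Cnn2, chr10:79988534-79988563 (+): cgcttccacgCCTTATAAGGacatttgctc
Vcl, chr14:20929161-20929190 (+): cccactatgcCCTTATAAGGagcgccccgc
Srf, chr17:46556205-46556234 (-): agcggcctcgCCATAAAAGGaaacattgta
Myl6, chr10:128493040-128493069 (-): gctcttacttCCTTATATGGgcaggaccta
Cnn2 and Vcl, which rose, hold the same 10 bases. The 10 bases of Myl6 also stand in the window of Dusp5, which rose (1.19 ± 0.10), while Myl6 was at 78.2, 74.3 and 94.9 CPM in ESCs and 77.1, 75.2 and 67.6 CPM in EpiLCs, with overlap between the cell types.

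Epithelial genes were also higher. Of 30 listed, 29 were tested (6 through 1 cell type only), 18 (62.1%) rose and 2 fell, and the median was 1.47. Esrp1, a splicing regulator of epithelial isoforms, measured 4.00, 5.28 and 3.01 CPM in ESCs and 146, 137 and 139.8 CPM in EpiLCs (5.06 ± 0.16, limma-voom adjusted p = 4.98e-07). Marveld3, of tight junctions, and Krt19, a keratin, followed (3.53 ± 0.18 and 3.47 ± 0.27). The keratin pair of simple epithelia rose in both partners, Krt18 from 16.1 to 176 CPM (3.46 ± 0.12) and Krt8 from 16.2 to 80.3 CPM (2.36 ± 0.14). Epcam (1.97) and the transcription factor Grhl2 (2.71) rose, while its relative Grhl3 fell (-3.31 ± 0.28), as did Elf3 (-2.82 ± 0.15), an ETS factor of epithelia. E-cadherin (Cdh1), already abundant in ESCs, was at 505, 497 and 664 CPM in ESCs and 958, 913 and 1027 CPM in EpiLCs, a difference of 0.82 ± 0.11 that did not reach 2-fold.

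Claudins, the strand-forming proteins of tight junctions, were mostly too scarce to test. Of 23 listed 7 were tested (2 through 1 cell type only), 5 rose and 0 fell. Cldn6 measured 19.98, 18.3 and 16.4 CPM in ESCs and 241, 222 and 227 CPM in EpiLCs (3.64 ± 0.08) and Cldn7 7.41, 6.81 and 6.93 CPM in ESCs and 96.4, 83.8 and 92.5 CPM in EpiLCs (3.68 ± 0.11), and the libraries of the cell types did not overlap for either. Cldn3 (1.98) and the scarce Cldn9 (1.49) rose by less. Cldn1 had 1 read in the ESC group, a ratio of 201 per library total (95% counting interval 35.4 to 8000.2). Cldn4 differed little (0.34 ± 0.11). Cadherins and protocadherins rose in 11 of 18 tested members and fell in 2, with a median of 1.74, although 7 of the 18 had reached the filter in 1 cell type only. Fat3, a giant atypical cadherin, measured 1.07, 0.741 and 1.19 CPM in ESCs and 64.6, 65.6 and 65.9 CPM in EpiLCs (6.07 ± 0.21). Its relative Fat1 was the most abundant riser of the family in CPM, at 275, 255 and 535 CPM in ESCs and 1844, 1662 and 1867 CPM in EpiLCs (2.44 ± 0.24; 2.76 without ESC replicate 3, which held the highest ESC value). Pcdh1 rose (3.95 ± 0.18) and Celsr1, a planar polarity cadherin, fell (-1.24 ± 0.10).

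Genes of the mesenchymal list moved in both directions, 5 up and 6 down of 17 tested, with a median of -0.33. Fibronectin (Fn1) fell, at 911, 859 and 1088 CPM in ESCs and 190.1, 153 and 161 CPM in EpiLCs (-2.50 ± 0.11, limma-voom adjusted p = 1.75e-06). So did Zeb1 (-3.35 ± 0.29), a repressor of Cdh1, and Timp1 (-2.48 ± 0.13), an inhibitor of matrix proteases, while Mmp2 (2.23 ± 0.09) and Mmp14 (1.33 ± 0.12), which are matrix proteases, rose. Vimentin (Vim, -0.69) and N-cadherin (Cdh2, 0.46) were not called. The E- and N-cadherin genes thus gave no exchange at this threshold.

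Matrix genes split by family. Of 44 collagens 20 were tested, 9 of them through 1 cell type only, and 14 rose (12 without ESC replicate 3) while 4 fell. The network-forming chains Col4a1 (from 56.3 to 188 CPM, 1.75 ± 0.07) and Col4a2 (1.76 ± 0.16) and the basement membrane collagen Col18a1 (from 317 to 818 CPM, 1.36 ± 0.07) rose. Col2a1, the fibrillar collagen of cartilage, measured 5.06, 5.19 and 6.47 CPM in ESCs and 76.8, 70.3 and 75.7 CPM in EpiLCs (3.77 ± 0.12). Integrins and laminins went the other way, 6 up and 10 down of 23 tested (6 through 1 cell type only), with a median of -0.41.

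Within the laminins, which assemble as trimers of an alpha, a beta and a gamma chain, the alpha chains changed in opposite directions. Lama1 measured 117, 115 and 151 CPM in ESCs and 10.99, 10.4 and 11.1 CPM in EpiLCs (-3.53 ± 0.18, limma-voom adjusted p = 2.77e-06) and Lama3 fell too (-3.12 ± 0.18), whereas Lama5 was at 416, 403 and 554 CPM in ESCs and 949, 891 and 946 CPM in EpiLCs (1.05 ± 0.11, and 0.96 and 0.99 without ESC replicates 2 and 1, under the fold threshold). Among the gamma chains Lamc1 fell from 893 to 275 CPM (-1.65 ± 0.18), and among the beta chains Lamb1 rose (1.74 ± 0.06). Of the integrins, Itgb1 rose from 303 to 818 CPM (1.47 ± 0.14) and its partner Itga3 from 67.6 to 193 CPM (1.57 ± 0.16). Itgal, also an integrin, had the lowest change of the pooled list (-4.41), whose counts were not split by family. Itgb8 had 0 reads in ESCs and 376 in EpiLCs, at least 213-fold higher against a floor of 3 reads over the ESC group. Tubulins (3 up, 3 down of 14) showed Tuba1a higher (1.59 ± 0.06) and Tubb2b lower (-1.54 ± 0.16), with the abundant Tubb5 at 0.19 ± 0.07.

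**Figure D3:**
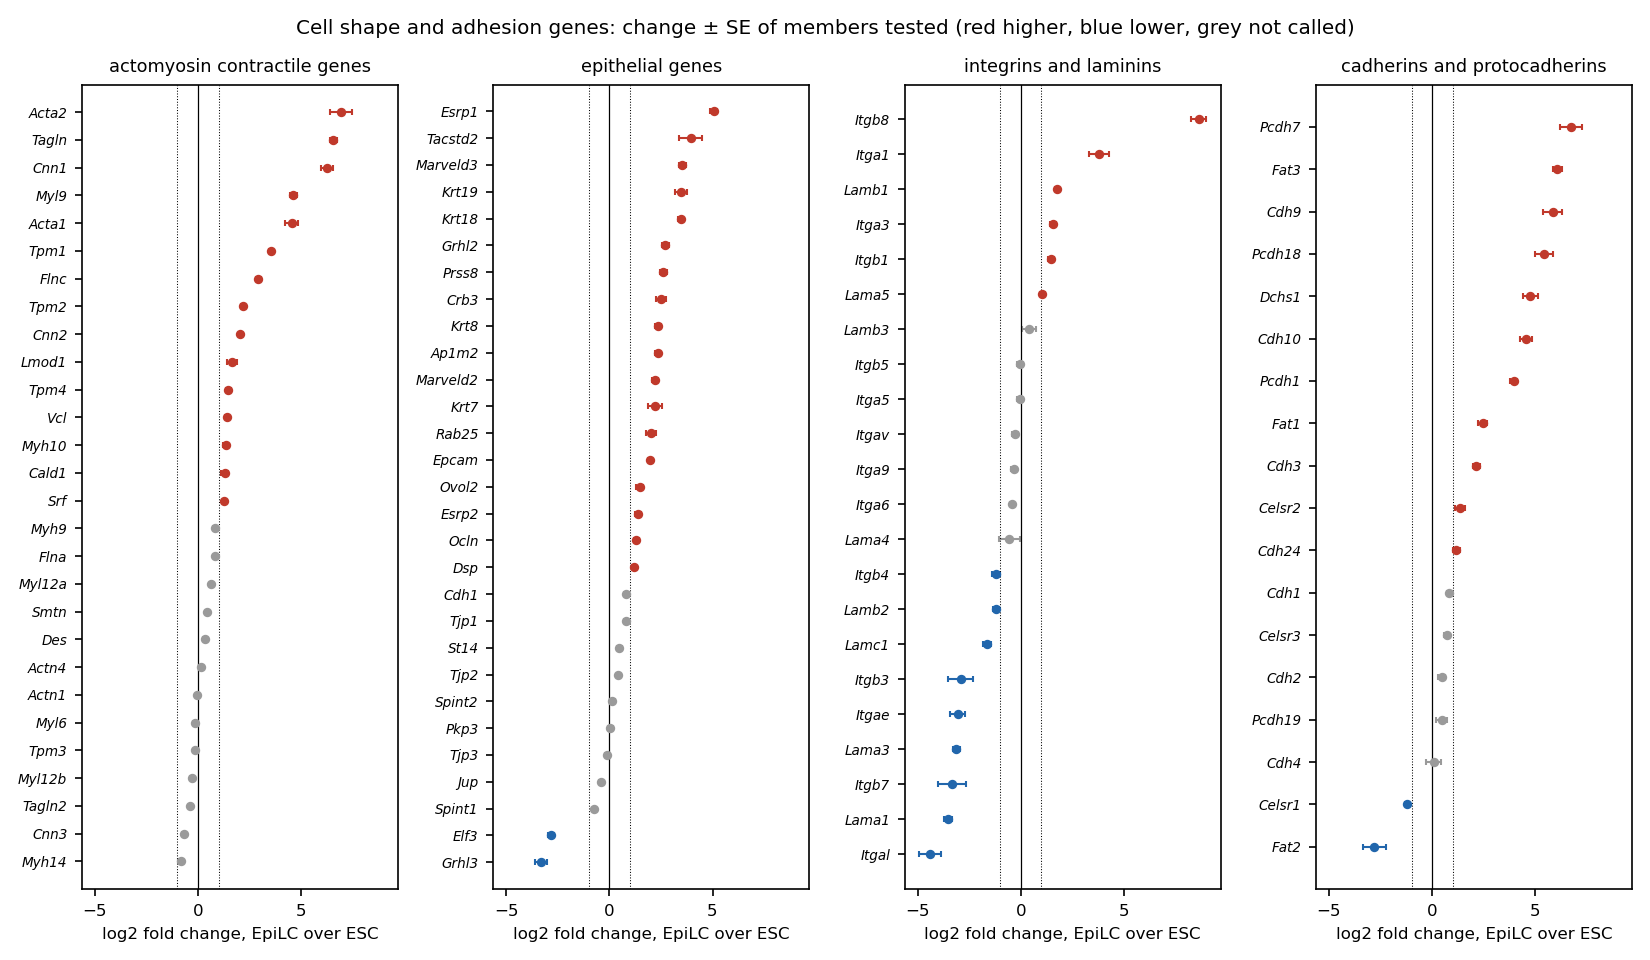
Log2 fold change, EpiLC over ESC (horizontal axis, bars are SE from limma-voom), of members tested in 4 lists, ordered by size. Red members rose, blue fell and grey were not called; dotted lines mark a 2-fold change. No gene of the contractile list, which leaves out Mylpf, fell, and 2 of 29 epithelial genes did. Integrins and laminins range from Itgal at -4.41 to Itgb8 at the top.

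Among signalling genes, FGF ligands and receptors had the largest share of members higher, 11 of 15 tested (73.3%) with 3 lower, but 8 of the 15 had reached the filter in 1 cell type only. Beside Fgf5, Fgf8 measured 0.107, 0.232 and 0.547 CPM in ESCs and 29.7, 23.9 and 27.7 CPM in EpiLCs (6.66 ± 0.48) and Fgf15 1.65, 1.06 and 1.09 CPM in ESCs and 20.4, 21.2 and 24.6 CPM in EpiLCs (4.10 ± 0.24). Fgf4, the ligand of naive cells, fell from 418 to 116 CPM (-1.86 ± 0.07, limma-voom adjusted p = 8.68e-07). Thus ligands moved in both directions, and the receptor genes Fgfr1 (1.23), Fgfr2 (2.88) and Fgfr3 (1.76) rose.

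Genes that ERK signalling induces or that restrain it rose in 10 of 20 tested members (9 without ESC replicate 3) and fell in none. Dusp6, a phosphatase of ERK, measured 18.1, 19.7 and 6.84 CPM in ESCs and 215, 189 and 224 CPM in EpiLCs (3.80 ± 0.28; 3.46 without ESC replicate 3). Myc measured 2.45, 2.96 and 1.19 CPM in ESCs and 24.6, 20.6 and 26.0 CPM in EpiLCs (3.37 ± 0.27; 3.11) and Egr1, an immediate early gene, 10.3, 7.41 and 1.00 CPM in ESCs and 43.1, 25.3 and 26.0 CPM in EpiLCs (2.49 ± 0.60; 1.79). ESC replicate 3 was the lowest library for all 3 genes, and its part in the size of these rises is shown by the values without it. In the fit of all 12 libraries Egr1 lost its call (limma-voom adjusted p = 0.151). Other feedback genes of the same pathway were not called: Spry2 (-0.13 ± 0.11), Spry4 (0.11 ± 0.56), Etv5 (0.11 ± 0.12) and Etv4 (-0.56 ± 0.24). Spry2 was at 77.0, 74.4 and 60.2 CPM in ESCs and 68.5, 59.2 and 67.5 CPM in EpiLCs. Etv5 was at 126, 117 and 92.2 CPM in ESCs and 121, 112 and 128 CPM in EpiLCs, and for both genes the cell types overlapped.

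LIF signalling genes fell in 8 of 16 tested members (50.0%, against 10.9% of all genes) and rose in 1. The receptor gene Lifr measured 129.6, 126 and 146 CPM in ESCs and 21.2, 19.2 and 18.6 CPM in EpiLCs (-2.76 ± 0.10), the transcription factor Stat3 123, 117 and 104 CPM in ESCs and 18.3, 20.5 and 18.5 CPM in EpiLCs (-2.59 ± 0.10) and its feedback inhibitor Socs3 67.2, 61.7 and 75.9 CPM in ESCs and 13, 10.1 and 10.2 CPM in EpiLCs (-2.62 ± 0.15, limma-voom adjusted p = 4.37e-06). All EpiLC libraries lay below all ESC libraries for the 3 genes, which was a condition for naming them. The shared receptor gene Il6st fell by less (-1.22), the kinase gene Jak1 was not called (-0.37), and Socs1 rose (1.15).

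Wnt ligands, receptors and antagonists rose in 14 of 31 tested members (7 through 1 cell type only) and fell in 5, with a median of 0.94. Fzd2 (from 14.9 to 94.9 CPM, 2.75 ± 0.12) rose and Fzd5 (from 207 to 44.8 CPM, -2.21 ± 0.06) fell, both receptors, and the antagonist genes Sfrp2 (3.13 ± 0.17) and Sfrp1 (-1.89 ± 0.21) moved apart in the same way. Wls, which carries Wnt proteins to the surface, rose from 19.4 to 94.9 CPM (2.34 ± 0.12). Of 12 Wnt target genes tested (4 through 1 cell type only) 4 rose and 2 fell (3 and 2 without ESC replicate 3). The falls were Notum (-4.74 ± 0.39; -4.15 without EpiLC replicate 2), an enzyme that inactivates Wnt proteins, and Cdx1 (-6.21 ± 1.20; -5.62 without EpiLC replicate 2), a homeobox gene. Axin2, a common readout of the pathway, was not called (-0.44).

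Nodal, Activin and TGF-beta genes gave 7 rises and 3 falls of 25 tested (7 and 4 without ESC replicate 3). Lefty1, an inhibitor of Nodal, measured 98.0, 84.1 and 6.29 CPM in ESCs and 444, 470.4 and 469 CPM in EpiLCs, with ESC replicate 3 more than 10 times below the other ESC libraries. Its change was 3.39 ± 0.77 with and 2.35 without that library, called both ways. The coreceptor Tdgf1 (from 511 to 1178 CPM, 1.20 ± 0.07) and the SMAD corepressor Skil (1.48 ± 0.08) rose, while Nodal (0.72) and Lefty2 (-0.83) were not called. BMP genes gave 6 rises and 2 falls of 18 tested (4 through 1 cell type only). Among the rises were the target Id1 at 7.46, 6.16 and 2.28 CPM in ESCs and 39.7, 42.8 and 46.6 CPM in EpiLCs (3.02 ± 0.29; 2.67 without ESC replicate 3) and the receptor Bmpr2 (1.47 ± 0.26; 1.79 without ESC replicate 3).

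YAP and TEAD target genes, which respond to cell spreading and tension, rose in 10 of 18 tested members and fell in 2. Igfbp3, which binds insulin-like growth factors, measured 7.78, 6.30 and 5.20 CPM in ESCs and 177, 157 and 161 CPM in EpiLCs (4.65 ± 0.14). Ccn1 (Cyr61), a matricellular protein, measured 29.7, 28.8 and 59.9 CPM in ESCs and 243, 232 and 225 CPM in EpiLCs (2.71 ± 0.22), and Ptpn14 rose from 52.3 to 297 CPM (2.58 ± 0.17). Myof (myoferlin) went against them, at 120.1, 118 and 209.8 CPM in ESCs and 10.8, 11.1 and 11.1 CPM in EpiLCs (-3.67 ± 0.35). Of Notch genes 7 of 25 tested (3 through 1 cell type only) rose and 1 fell: the receptors Notch3 (from 69.0 to 489 CPM, 2.89 ± 0.16) and Notch2 (1.52 ± 0.11) and the ligand Jag2 (1.92 ± 0.11) were among the rises, whereas the targets Hes1 (-0.06) and Hey1 (-0.04) were not called. Retinoid genes gave 4 rises and 1 fall of 10 (3 and 2 without ESC replicate 3), the fall being Aldh1a2 (-2.98 ± 0.45), which makes retinoic acid.

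Axon guidance genes, which many non-neural cells use for contact and repulsion, rose in 15 and fell in 7 of 46 tested, 6 of them through 1 cell type only. Without ESC replicate 3, 18 rose and 7 fell. The semaphorin Sema3e measured 2.03, 1.81 and 0.912 CPM in ESCs and 167, 159 and 179 CPM in EpiLCs (6.68 ± 0.25, limma-voom adjusted p = 8.6e-07) and Sema3c 3.04, 2.36 and 5.01 CPM in ESCs and 72.7, 70.6 and 71.9 CPM in EpiLCs (4.53 ± 0.20). Of the secreted class 3 semaphorins tested Sema3f also rose (1.65) and Sema3b was not called (-0.15). The membrane-bound Sema4b (-1.75), Sema4f (-1.60) and Sema4a (-1.20) fell and Sema4c (2.19) rose. Netrin 1 (Ntn1) fell, at 136, 119.6 and 105 CPM in ESCs and 7.19, 7.01 and 4.78 CPM in EpiLCs (-4.27 ± 0.22). The ephrin receptor Epha4 fell too (-3.26 ± 0.56; -2.90 without ESC replicate 3). Epha2, the member with the highest level per kilobase, was not called (0.10 ± 0.10).

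**Figure D4:**
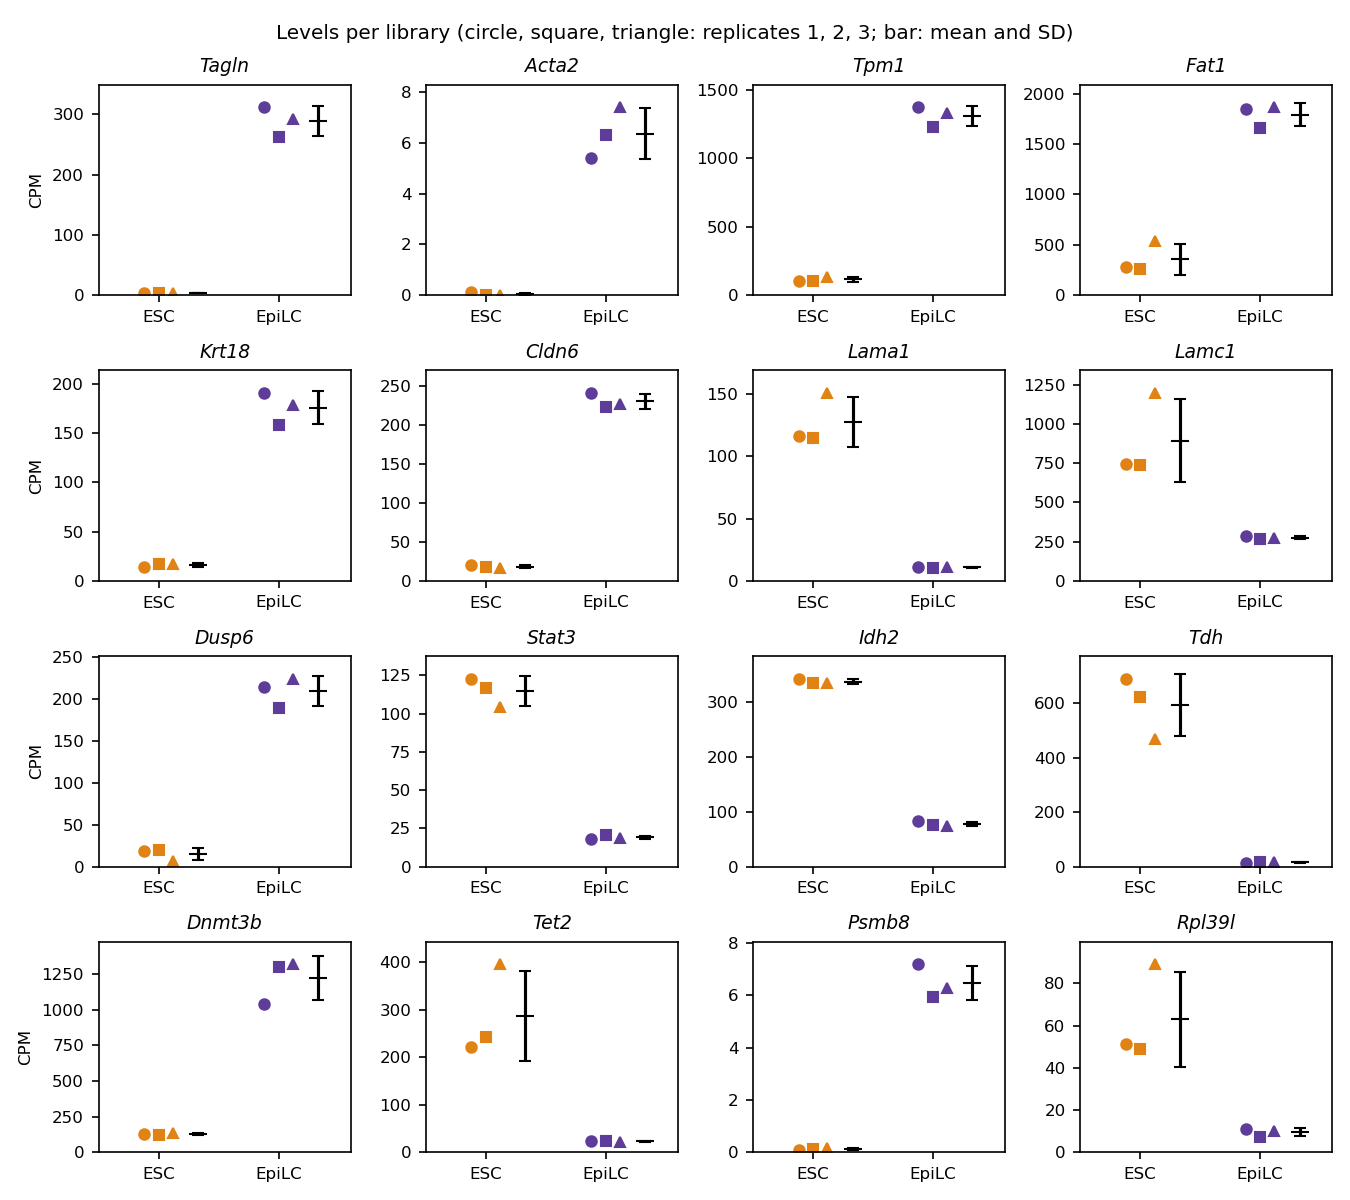
Levels of 16 genes in each library (vertical axis, TMM-scaled CPM from 0; circles, squares and triangles are replicates 1, 2 and 3), with the mean and SD of each cell type as a black bar. No gene shown has overlapping cell types. ESC replicate 3 lies apart from the other ESC libraries for several genes, such as Fat1, Lamc1, Dusp6, Tet2, Rpl39l, Lama1 and Tdh.

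Metabolic genes changed at single steps and much less along whole pathways. In glycolysis and lactate transport 3 of 25 rose and 5 fell (2 and 4 without ESC replicate 3). The median was 0.08 (-0.02 without ESC replicate 3). The lactate exporter Slc16a3 measured 80.7, 77.8 and 38.3 CPM in ESCs and 400.1, 419 and 443 CPM in EpiLCs (2.71 ± 0.23) and the glucose transporter Slc2a1 152, 136 and 98.7 CPM in ESCs and 357, 377 and 366 CPM in EpiLCs (1.51 ± 0.14). By contrast Pfkp, a phosphofructokinase, measured 410.0, 394 and 477 CPM in ESCs and 37.7, 37.3 and 32.6 CPM in EpiLCs (-3.56 ± 0.11, limma-voom adjusted p = 4.26e-07), and hexokinase Hk1 fell from 105 to 24.5 CPM (-2.09 ± 0.14). Their isoforms Pfkl (0.63), Pfkm (0.03) and Hk2 (-0.58) were not called, nor were the enzymes common to all cells, such as Pkm (0.11 ± 0.10), Ldha (0.14) and Gapdh (0.73).

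Genes of the tricarboxylic acid cycle and of oxidative phosphorylation were lower by small amounts over nearly the whole list. Of 22 cycle and pyruvate entry genes 18 had an adjusted p under 0.05 below 0 and 2 above it (81.8% lower, against 33.9% of all genes), the median was -0.52, and 1 passed the fold threshold: Idh2, mitochondrial isocitrate dehydrogenase, measured 343, 334 and 334 CPM in ESCs and 82.3, 76.1 and 74.0 CPM in EpiLCs (-2.12 ± 0.06). Of 77 nuclear oxidative phosphorylation genes 58 (75.3%) had an adjusted p under 0.05 in the lower direction and 0 in the higher, with a median of -0.47, and 3 of 77 had a change above 0. The 4 called falls (6 without ESC replicate 3) were Cox7a1 (-2.01 ± 0.25), Ndufb4 (-1.47 ± 0.13), Cox5a (-1.32 ± 0.09) and Cox6b2 (-1.04 ± 0.19; -0.95 and -0.96 without ESC replicates 1 and 2, under the fold threshold). Of these Cox5a was the most abundant, at 244, 255 and 304 CPM in ESCs and 109.9, 107 and 101 CPM in EpiLCs. Of 13 mitochondrially encoded protein genes 5 had 0 reads in all 6 libraries and 7 were tested, so the list is covered in part. The 7 gave 0 calls, and limma-voom had an adjusted p under 0.05 for 5 of them, 3 higher and 2 lower.

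Serine, threonine and one-carbon genes gave 1 rise and 3 falls of 24 tested. Tdh, threonine dehydrogenase, measured 691, 624 and 468 CPM in ESCs and 15.1, 16.6 and 17.1 CPM in EpiLCs (-5.17 ± 0.22, limma-voom adjusted p = 1.33e-06). Aldh1l1 (-3.23 ± 0.19), a folate enzyme of the cytosol, and Amt (-1.28 ± 0.06), of the mitochondrial glycine cleavage system, fell as well, whereas Psat1 of serine synthesis was at -0.22 ± 0.05 and not called. Mthfd2l, scarce in both cell types, was the rise (2.47 ± 0.29). Asns, asparagine synthetase and a target of the integrated stress response, measured 1661, 1619 and 1799 CPM in ESCs and 484, 422 and 463 CPM in EpiLCs (-1.89 ± 0.07), and that response as a list split evenly, 5 up and 5 down of 20, with Nupr1 down (-3.45 ± 0.34) and Atf3 up (1.58 ± 0.26).

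Amino acid transporters rose in 9 of 26 tested (3 through 1 cell type only) and fell in 2 (11 and 1 without ESC replicate 3), among them Slc43a2 (2.18 ± 0.12), Slc1a3 (2.13 ± 0.15) and Slc7a7 (2.11 ± 0.16). The more abundant arginine transporter Slc7a3 measured 205, 206 and 131 CPM in ESCs and 396, 429.6 and 449 CPM in EpiLCs (1.24 ± 0.16). Sterol synthesis genes, with a median of 0.39, had 20 of 28 members above 0 but 1 called rise and 1 called fall (2 and 1 without ESC replicate 3), the fall being Ebp (-1.42 ± 0.18), a sterol isomerase. In fatty acid synthesis 4 rose and 3 fell of 22, among them Acsl4 (from 42.0 to 133 CPM, 1.68 ± 0.10) and Elovl7 (-1.39 ± 0.15). Of 21 glycosphingolipid enzymes (4 through 1 cell type only) 4 rose and 5 fell, such as A4galt at 65.3, 76.6 and 96.4 CPM in ESCs and 19.12, 20.8 and 22.6 CPM in EpiLCs (-1.89 ± 0.17), and Ugt8a rose (2.38 ± 0.12).

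Lysosomal genes fell in 6 of 37 tested members (7 without ESC replicate 3) and rose in none. Tfeb, a transcription factor of lysosome synthesis, measured 59.7, 54.8 and 44.7 CPM in ESCs and 2.85, 3.42 and 3.47 CPM in EpiLCs (-4.02 ± 0.26). Tfe3, a relative of Tfeb, was not called (0.51). Of the proton pump subunits Atp6v0a4 (-4.62) and, just past the fold threshold, Atp6v1a (-1.03) fell. Lamp1, a membrane protein and the member with the highest level per kilobase, was not called (-0.28 ± 0.05). Of 17 Bcl2 family genes (3 through 1 cell type only) 5 rose and 1 fell. Bcl2 itself, which restrains apoptosis, measured 0.373, 0.370 and 0.912 CPM in ESCs and 31.4, 27.4 and 25.5 CPM in EpiLCs (5.82 ± 0.36), and the promoters of apoptosis Pmaip1 (from 51.8 to 236 CPM, 2.18 ± 0.08) and Bok (1.86 ± 0.11) rose too, so genes of opposed action rose side by side. The abundant Mcl1 was at 0.35 ± 0.10.

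DNA methylation genes gave 2 rises and 4 falls of 19. The writer Dnmt3b measured 128, 125 and 135 CPM in ESCs and 1042, 1300.4 and 1319 CPM in EpiLCs (3.24 ± 0.10, limma-voom adjusted p = 4.49e-07), and Dnmt3a 145, 143 and 96.2 CPM in ESCs and 262, 293 and 285 CPM in EpiLCs (1.13 ± 0.15; 0.96 without ESC replicate 3, under the fold threshold). Their cofactor Dnmt3l fell from 374 to 119 CPM (-1.65 ± 0.15), Uhrf1, which brings Dnmt1 to replicated DNA, from 872 to 378 CPM (-1.21 ± 0.05), and the demethylase Tet2 from 287 to 23.2 CPM (-3.56 ± 0.27). Dnmt1 (-0.42), Tet1 (-0.69) and Tet3 (0.98) were not called.

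Polycomb genes gave 3 rises (8.57%) and 3 falls (8.57%) of 35. In this list and the other lists of this paragraph, both shares lay below those over all genes tested (15.2% and 10.9%). The falls concerned accessory and core proteins of the H3K27 methylase complex: Mtf2 at 801, 806 and 788 CPM in ESCs and 203, 218 and 208 CPM in EpiLCs (-1.93 ± 0.05), Eed at 248, 240.3 and 213 CPM in ESCs and 91.4, 88.8 and 92.7 CPM in EpiLCs (-1.36 ± 0.07) and Epop (-1.34 ± 0.15). The rises were Yaf2 (1.51 ± 0.10) and, at the edge of the fold threshold, Pcgf5 (1.01) and Phc1 (1.00), each of which fell short of it without any 1 of 3 libraries (Pcgf5: ESC replicates 1 and 2 and EpiLC replicate 1, 0.95 to 0.96; Phc1: ESC replicates 1 and 2 and EpiLC replicate 3, 0.96 to 0.99). Among 48 histone lysine methylases and demethylases 6 (12.5%) rose and 1 (2.08%) fell. Setd7 measured 12.4, 14.3 and 29.4 CPM in ESCs and 196, 191 and 187 CPM in EpiLCs (3.57 ± 0.22), Suv39h1 rose from 23.2 to 72.3 CPM (1.63 ± 0.08), and the H3K9 demethylase Kdm3a fell from 207 to 76.1 CPM (-1.45 ± 0.07). Remodellers gave 6 rises (12.5%) and 3 falls (6.25%) of 48, among them Chd9 (from 121 to 404 CPM, 1.81 ± 0.18), Arid2 (1.63 ± 0.07), Chd7 (1.58 ± 0.12) and Smarcd3 (-2.26 ± 0.40). Of 55 replication-dependent histone genes 2 rose, both scarce (Hist3h2ba, 2.85 ± 0.20, and Hist1h2aa, 1.27 ± 0.19), and the median was -0.31. Hist1h1c fell (-1.04 ± 0.13; -0.98, -0.95 and -0.98 without ESC replicates 1 and 2 and EpiLC replicate 1). Histone genes have near-identical copies, and reads that match several of them were dropped, so their values are uncertain.

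Imprinted genes, which are expressed from 1 parental copy in at least some tissues, rose in 20 of 41 tested (48.8%; 4 of the 41 through 1 cell type only) and fell in 5, with a median of 0.96. The counts do not separate parental copies. The rises lay in several domains. H19 measured 5.60, 5.70 and 3.19 CPM in ESCs and 81.6, 90.3 and 144 CPM in EpiLCs (4.36 ± 0.37) and its neighbour Igf2, which is expressed from the opposite parental copy, 1.33, 1.90 and 2.55 CPM in ESCs and 12.5, 8.45 and 14.6 CPM in EpiLCs (2.66 ± 0.33). In the Dlk1-Dio3 domain Meg3 (1.86 ± 0.12), Rian (1.136) and Mirg (1.76), all non-coding, rose and Dio3 fell (-2.43 ± 0.62). In the Kcnq1 domain Cdkn1c, an inhibitor of the cell cycle (2.70 ± 0.20), and Kcnq1ot1 (1.19) rose and Ascl2 fell (-2.001). Peg10 (2.70 ± 0.20) and its neighbours Sgce (1.52) and Ppp1r9a (1.31) rose. Ddc fell most, at 56.3, 60.8 and 77.0 CPM in ESCs and 2.64, 2.97 and 2.44 CPM in EpiLCs (-4.54 ± 0.30).

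Zinc finger genes numbered as Zfp, many of which encode DNA-binding repressors, gave more falls than rises: of 335 tested, 16 of them through 1 cell type only, 48 (14.3%, against 10.9% of all genes) fell and 28 (8.36%, against 15.2%) rose. The rises were led by Zfp608 at 0.533, 0.463 and 0.547 CPM in ESCs and 51.4, 44.9 and 53.4 CPM in EpiLCs (6.53 ± 0.30) and the falls, beside the naive marker Zfp42, by Zfp607b (-3.14 ± 0.31) and Zfp59 (-2.58 ± 0.16). When tested Zfp genes whose starts lie within 2 Mb of the next were joined, the run with the most falls was on chromosome 4 (145510759 to 147848366), where 12 of 16 fell, 0 rose, 0 had a change above 0 and the median was -1.26 (-1.32 without ESC replicate 3). Zfp981 measured 107, 115 and 106 CPM in ESCs and 28.5, 29.8 and 29.7 CPM in EpiLCs (-1.90 ± 0.07) and Zfp985 149, 150.4 and 134 CPM in ESCs and 46.4, 53.9 and 55.4 CPM in EpiLCs (-1.48 ± 0.09) there. Of 14 other runs with at least 5 genes tested, none had a higher share of falls. The next by count, on chromosome 7 (27689340 to 30169727), had 7 of 23. Genes of such runs are close relatives, and reads that match several of them were dropped by the authors' alignment, so single members are less certain than the direction they share. The runs were defined after the values were seen.

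Few genes of the machinery that every cell uses passed the 2-fold threshold, but in several of its lists most members were lower by small amounts. Of 82 cytosolic ribosomal protein genes 0 rose and 2 fell (1 rose without ESC replicate 3), with a median of -0.03, and of 76 mitochondrial ones 0 rose and 1 fell (2 without ESC replicate 3), with a median of -0.34. DNA replication genes gave 0 rises and 1 fall of 52, Orc1 of the origin recognition complex (from 166 to 76.7 CPM, -1.12 ± 0.06), with 5 of 52 above 0 and a median of -0.30. Splicing regulators of the SR and hnRNP families gave 1 rise of 38 (2 without ESC replicate 3), the neural paralog Ptbp2, at 41.7, 40.7 and 36.2 CPM in ESCs and 177, 165 and 182 CPM in EpiLCs (2.13 ± 0.08, limma-voom adjusted p = 7.78e-07). Proteasome subunits gave 2 rises and 1 fall of 42, chaperones 3 and 6 of 71, translation factors and their named regulators 4 and 7 of 65, and cell cycle genes 5 and 4 of 44. In each of these lists both shares lay below those over all genes tested (15.2% and 10.9%), most narrowly for the falls among translation factors (10.8%). By the adjusted p alone, however, 67.3% of the DNA replication genes, 59.5% of the proteasome subunits and 59.2% of the mitochondrial ribosomal protein genes were lower, against 33.9% of all genes.

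Several of the called genes encode relatives of common subunits. In the cytosolic ribosome they were Rpl39l, at 51.5, 48.8 and 89.1 CPM in ESCs and 11.2, 7.37 and 10.1 CPM in EpiLCs (-2.66 ± 0.35), and Rpl10l, at 42.1, 42.0 and 57.0 CPM in ESCs and 5.81, 7.55 and 6.93 CPM in EpiLCs (-2.75 ± 0.22), which stand in for Rpl39 and Rpl10 in the male germline. In the proteasome they were Psma8, the testis form, at 48.4, 50.2 and 46.8 CPM in ESCs and 8.24, 9.17 and 7.495 CPM in EpiLCs (-2.54 ± 0.11), and the immunoproteasome subunits Psmb8, at 0.107, 0.139 and 0.182 CPM in ESCs and 7.19, 5.93 and 6.28 CPM in EpiLCs (5.25 ± 0.34), and Psmb9 (1.30 ± 0.24), both of which entered through 1 cell type only. Common forms such as Rpl8 (-0.13 ± 0.06), Psmb6 (-0.34 ± 0.05) and the elongation factor Eef1a1 (-0.04 ± 0.04) were not called. Among tubulins the testis form Tuba3a fell (-2.94 ± 0.34). Ribosomal protein genes have many processed pseudogenes, so unique alignment makes these values less certain than those of Psma8 or Psmb8. These genes were grouped after their values were seen.

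**Figure D5:**
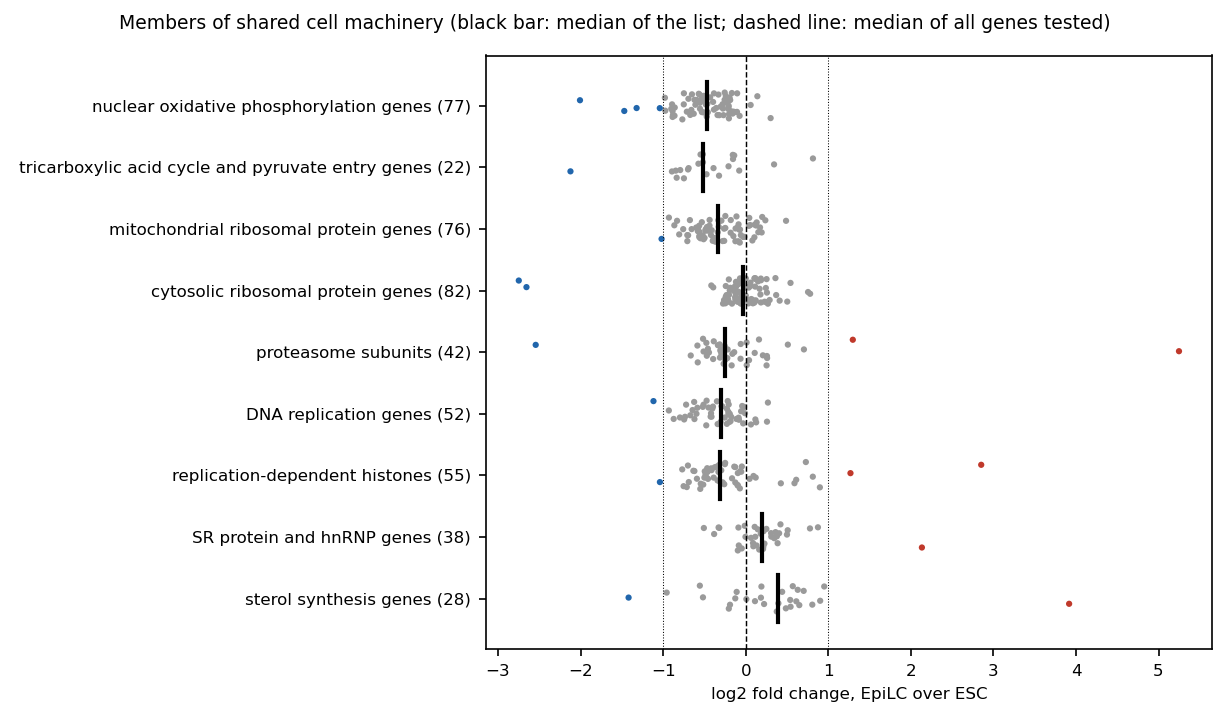
Each point is 1 gene of a list (vertical position within a row carries no value) at its log2 fold change, EpiLC over ESC (horizontal axis), with the number tested in brackets. Red genes rose, blue fell and grey were not called; black bars are list medians, the dashed line is the median of all genes and dotted lines mark a 2-fold change. Oxidative phosphorylation (-0.47) and cycle genes (-0.52) lie left of 0 almost as a whole, and cytosolic ribosomal proteins (-0.03) centre on it.

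Translation factors included the cap-binding scaffold Eif4g3, which rose from 21.4 to 130.1 CPM (2.66 ± 0.11), and the falls of Eif2s2 (-1.41 ± 0.12) and Eif2b5 (from 654 to 265 CPM, -1.30 ± 0.07), subunits of the initiation factor eIF2 and of its exchange factor. Eef2k, the kinase that slows elongation, fell from 60.3 to 16.9 CPM (-1.84 ± 0.13). Of the small heat shock proteins Hspb1 measured 91.1, 82.0 and 77.6 CPM in ESCs and 19.02, 16.8 and 20.5 CPM in EpiLCs (-2.16 ± 0.11) and Hspb8 fell too (-2.03 ± 0.20). In the cell cycle, D-type cyclins diverged: Ccnd3 measured 170.4, 168 and 166 CPM in ESCs and 57.8, 51.3 and 55.1 CPM in EpiLCs (-1.62 ± 0.06), Ccnd2 5.81, 7.13 and 0.820 CPM in ESCs and 24.8, 22.2 and 23.9 CPM in EpiLCs (2.52 ± 0.52; 1.86 without ESC replicate 3 and 3.11 without ESC replicate 2), and Ccnd1 was not called (0.47 ± 0.09). For Ccnd3 no EpiLC library reached the lowest ESC library, and Ccnd2 was lowest in ESC replicate 3. Among genes of small RNA silencing and mRNA decay 4 of 68 rose and 0 fell (1 without ESC replicate 3): Zfp36, which destabilises AU-rich mRNAs (2.93 ± 0.18), Lsm6 (1.02; 0.98 and 0.99 without ESC replicate 1 and EpiLC replicate 3), and the let-7 antagonists Lin28b (from 40.2 to 209.7 CPM, 2.37 ± 0.15) and Lin28a, at 377, 339 and 124 CPM in ESCs and 911, 912 and 917 CPM in EpiLCs (1.82 ± 0.35; 1.35 without ESC replicate 3). Of 14 small nucleolar RNA host genes Snhg14 rose (2.03 ± 0.07; 2 rose without ESC replicate 3) and Gas5 was at -0.14 ± 0.05.

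Lineage markers were mostly too scarce to test. Of 39 Hox genes 2 were tested (both through 1 cell type only), 1 higher and 1 lower, of 20 primitive streak genes 5 (4 through 1 cell type only), of 16 2-cell-stage genes 2 and of 22 T-box and GATA genes 5. Summed levels of the whole streak list ran from 28.5 to 60.7 CPM in ESC and 61.9 to 85.6 CPM in EpiLC libraries, with Cer1 and Lhx1 at 0 reads in ESCs and 2 and 6 in EpiLCs. Of that list Fgf8, Wnt3 (5.78 ± 0.49) and T (2.40 ± 0.66; 1.61 without ESC replicate 3) rose and Nkx1-2, a homeobox gene, fell (-4.04 ± 1.26), a call lost without each EpiLC library in turn (limma-voom adjusted p = 0.0717 to 0.0753). T (brachyury) stayed low, at 2.34, 2.08 and 0.182 CPM in ESCs and 7.61, 5.03 and 8.24 CPM in EpiLCs. Of the 2-cell list 0 were called (limma-voom; 1 had an adjusted p under 0.05, lower), and its summed level was 335 to 367 CPM in ESC and 280 to 287 CPM in EpiLC libraries, nearly all of it from Eif1a (17920 reads in the ESC and 7986 in the EpiLC group). Zscan4d, the other member tested, had 261 reads in the ESC and 242 in the EpiLC group and was not called (0.57). Zscan4a, annotated as a pseudogene and therefore left out of that count, had 394 and 125 reads and was not called (-0.94).

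Primitive endoderm genes rose in 6 and fell in 2 of 10 tested (of 21 listed). The risers that were abundant were Lrp2 (megalin, an endocytic receptor), at 50.4, 50.9 and 131 CPM in ESCs and 1361, 1253 and 1321 CPM in EpiLCs (4.30 ± 0.29; 4.69 without ESC replicate 3), and the basement membrane genes Col4a1, Col4a2 and Lamb1 described above, while Lama1 and Lamc1 of the same list fell. Whole-list levels were 1352 to 2112 CPM in ESC and 2395 to 2555 CPM in EpiLC libraries. Of the defining genes of this lineage, Dab2 (24 reads in ESCs and 327 in EpiLCs, 4.89 ± 0.57) and Gata4 (119 and 162) also rose and Dab2 entered through 1 cell type only, while others were scarce and not tested: Sox17 had 72 reads in ESCs and 2 in EpiLCs, Gata6 20 and 5, Hnf4a 193 and 0, and Afp 0 in both. Neural ectoderm genes rose in 5 and fell in 2 of 11 tested (of 25; 3 through 1 cell type only), with whole-list levels of 227 to 269 CPM in ESC and 718 to 778 CPM in EpiLC libraries. Nes, an intermediate filament gene, measured 33.4, 30.3 and 70.7 CPM in ESCs and 407, 346 and 358 CPM in EpiLCs (3.22 ± 0.25), Map2 rose (2.80 ± 0.18), Pax6 rose from 0.204 to 9.61 CPM (5.46), Ncam1 (-2.03 ± 0.16) and Sox21 (-2.83 ± 0.34) fell, and Sox1 was not called (0.75). Trophoblast genes rose in 4 and fell in 3 of 8 tested (3 through 1 cell type only), the risers being Krt7, Krt8, Krt18 and Peg10, with Elf5 at 3 reads in ESCs and 0 in EpiLCs and Tfap2c down (-3.32 ± 0.14). Their whole-list levels were 127 to 142 CPM in ESC and 388 to 470.0 CPM in EpiLC libraries. The part of these lineages in the other results was not tested.

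Methylation-sensitive germline genes, as a list, moved both ways, 8 up and 8 down of 21 tested (3 through 1 cell type only), with whole-list levels of 1096 to 1186 CPM in ESC and 504 to 519 CPM in EpiLC libraries. Dppa5a fell from 633 to 142 CPM (-2.16 ± 0.08) and Tdrd12 of the piRNA pathway from 137 to 24.2 CPM (-2.49 ± 0.09), while Ddx4 (from 13.4 to 56.5 CPM, 2.04 ± 0.13), Mael (1.94 ± 0.17) and Sycp3 (1.21 ± 0.17) rose. Within the Sox family, Sox2 measured 471, 458 and 400.0 CPM in ESCs and 40.9, 35.5 and 40.4 CPM in EpiLCs (-3.51 ± 0.10, limma-voom adjusted p = 3.42e-07), whereas Sox3 (3.24 ± 0.23), Sox4 (2.73 ± 0.26) and Sox11, at 27.6, 28.0 and 16.04 CPM in ESCs and 169, 155 and 158 CPM in EpiLCs (2.72 ± 0.17), rose, which makes 5 rises and 3 falls among 10 tested, 4 of them through 1 cell type only. Of 20 forkhead genes (5 through 1 cell type only) 8 rose and 1 fell, with Foxp1 (from 14.5 to 65.2 CPM, 2.13 ± 0.14), Foxn3 (1.25 ± 0.08) and Foxh1, the partner of SMADs (1.24 ± 0.08), among the rises. In the T-box and GATA families Tbx3 measured 254, 257 and 236 CPM in ESCs and 3.70, 2.70 and 2.72 CPM in EpiLCs (-6.36 ± 0.18) and Gata4 (1.27 ± 0.34) lost its call without ESC replicate 1 (0.98) or 2 (1.15, limma-voom adjusted p = 0.0529).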

How the data were processed

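The authors trimmed reads with cutadapt 1.14, aligned them to mm10 with STAR 2.5.3a and counted them by strand over GENCODE M14 exons with featureCounts 1.5.3 (tools and versions per the submitters' processing notes). The deposited values are raw read counts per gene. Only unique alignments were kept, so paralogs and pseudogenes lose the reads they share.

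Total RNA libraries were fitted with voom in limma 3.58.1 (R 4.3.3), with cell type as the term and TMM scaling from edgeR 4.0.16. A call needed a change over 2-fold, EpiLC over ESC, and an adjusted p (Benjamini-Hochberg) under 0.05. CPM of single genes are TMM-scaled, whereas whole-list levels, intervals and floors use unscaled library totals, intervals and floors cover counting error only, lists leave out annotated pseudogenes, and the script was tested on simulated counts. The alternatives are described with their effects further on, and included the quasi-likelihood test of edgeR and DESeq2 1.42.0. Motifs were searched with Python 3.11.15.

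The members and gene lists were chosen with earlier results of these data known. In each list the named genes are, at a mean of at least 10 CPM and with no overlap, the largest called changes in each direction, all called members where there were 5 or fewer, and the member most abundant per kilobase. Other genes were named after their values were seen. A few members are counted in their lists but not reported by name here.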

Additional observations from a re-analysis of the deposited data

How the results depend on the processing

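The number of genes higher in EpiLC total RNA (1881) and of genes lower in EpiLC total RNA (1351) stayed within 1.5 times under most alternatives: edgeR's quasi-likelihood test gave 1830 and 1371, DESeq2 1848 and 1356, the library totals in place of TMM 1972 and 1256, a filter of 1 CPM 2543 and 1789, and all 12 libraries in 1 fit 2407 and 1652. Leaving out each library in turn gave 1829 to 1968 rises and 1318 to 1363 falls. The adjusted p alone gave 4157 and 4203, no filter on low levels gave 4003 and 2630, and a test against a change of log2 1 gave 1214 and 769, each of which by its construction changes what can be called. DESeq2 and edgeR shared 3165 and 3166 of the 3232 calls in the same direction. The replicate numbers do not pair the libraries (correlation of deviations of same-numbered libraries -0.132, 0.00582 and -0.215), and a replicate block gave 1848 and 1361.

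Of 4680 values for named genes under alternatives, 89 fell short of a threshold, 1 newly passed it and 0 changed direction. List medians changed sign in 19 of 915, in tubulins, glycolysis, glycosphingolipid, Polycomb, cytosolic ribosomal, cell cycle, 2-cell-stage and Hox genes, whose medians lay near 0 or rested on 2 genes. Without ESC replicate 3, an alternative chosen after seeing the data for the lists, 8 of 122 list counts moved by over 1.5 times. Scarce genes, 1 cell line, undefined independence of replicates and the lack of spike-in reads limit these results. Without spike-in reads, a change in total RNA per cell could not be measured.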

Other observations

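Some of the most abundant genes that changed belonged to none of the lists, and were picked after their values were seen. Jam2, a junctional adhesion molecule, measured 247, 256 and 268 CPM in ESCs and 1.06, 1.17 and 0.562 CPM in EpiLCs (-8.10 ± 0.29), and Mylpf, a myosin light chain of skeletal muscle, 222, 222 and 183 CPM in ESCs and 1.48, 1.89 and 1.78 CPM in EpiLCs (-6.89 ± 0.30). In both, the EpiLC libraries were near 0. Spp1 (osteopontin, a secreted matrix protein), at 596, 622 and 893 CPM in ESCs and 30.2, 32.0 and 34.9 CPM in EpiLCs, and the tetraspanin Cd9, at 260.1, 271 and 287 CPM in ESCs and 35.0, 31.7 and 32.8 CPM in EpiLCs, fell too (-4.40 ± 0.20 and -3.04 ± 0.07). Mybl2, a transcription factor of cycling cells, fell from 463 to 84.3 CPM (-2.46 ± 0.07). Titin (Ttn) measured 464, 432 and 855 CPM in ESCs and 70.7, 68.1 and 75.7 CPM in EpiLCs (-2.94 ± 0.27; -2.65 without ESC replicate 3, its highest library).

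Among the rises, Kif1a, a kinesin that carries vesicles along microtubules, measured 3.36, 3.66 and 3.65 CPM in ESCs and 303, 250.1 and 251 CPM in EpiLCs (6.22 ± 0.19), and Gja1 (connexin 43, of gap junctions) 59.9, 61.5 and 62.5 CPM in ESCs and 496, 455 and 451 CPM in EpiLCs (2.93 ± 0.06). Soat1, which esterifies cholesterol, rose from 35.4 to 315 CPM (3.16 ± 0.22) and Myo5a, an unconventional myosin, from 48.6 to 265 CPM (2.46 ± 0.07). The insulin-like growth factor receptor Igf1r (from 48.9 to 166 CPM, 1.78 ± 0.10) and the adaptor Irs2 (from 26.6 to 207 CPM, 3.11 ± 0.21) rose. Rlim, an X-linked ubiquitin ligase, rose from 258 to 851 CPM (1.72 ± 0.09).

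Non-coding genes moved in both directions. Of 123 long intergenic non-coding RNAs tested 23 rose and 35 fell, a share of falls above that of protein-coding genes, of which 1752 rose and 1261 fell among 11657. Lncenc1 measured 301, 302 and 282 CPM in ESCs and 17.96, 17.9 and 17.7 CPM in EpiLCs (-4.04 ± 0.08). Ftx, of the X inactivation centre, measured 2.72, 1.99 and 2.19 CPM in ESCs and 26.5, 28.9 and 25.2 CPM in EpiLCs (3.55 ± 0.17), and entered through EpiLC libraries only. Of 145 small nucleolar RNAs 3 rose and 0 fell, with a median of 0.50. The gene models marked as needing experimental proof (TEC) rose in 52 of 130 and fell in 5, against 15.2% and 10.9% of all genes, with a median of 0.75. How many genes of each type or chromosome entered through 1 cell type only is not reported here, and such entry favours calls. Chromosome X had 108 rises and 31 falls among 422 genes tested (median 0.19), chromosome 3 had 126 and 47 among 598 (0.17), and chromosome 8 had 137 and 51 among 704 (0.18; 0.26 without ESC replicate 3). Chromosome 17 had 79 and 85 among 618 (-0.14). Only some chromosomes are given here, named with the values of all of them known. Over all genes tested 15.2% rose and 10.9% fell, and whether a chromosome departs from these shares was not tested.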
